A study of Mus musculus with 12 samples.

Results

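The genes described here make fatty acids, triglycerides and cholesterol, together with the main regulators of those routes. They are 39 of 55414 mouse gene identifiers in the count table, chosen by symbol from knowledge of the pathways. Earlier results of these data were known when they were chosen. The acid and triglyceride branch (the SREBP1-type list) has 19 of them and the sterol branch (the SREBP2-type list) 20. Each symbol matched exactly 1 identifier. RNA was sequenced from whole liver and whole lung of wild-type (WT) C57BL/6J mice 6 h after surgery. The surgery was either cecal ligation and puncture (CLP), in which the tied and pierced cecum leaks gut bacteria and causes abdominal sepsis, or a sham operation. There were 3 libraries in each of 4 groups, liver sham, liver CLP, lung sham and lung CLP, numbered 1 to 3 in the labels, and 12 libraries in all. All groups shared genotype, strain, housing and a chow diet that was freely available. Age, sex and food intake after surgery are not stated in the labels. The labels do not say whether each library came from its own mouse, so the p-values speak only of the spread among the libraries, which may be partly technical.

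As background, 2 related transcription factors switch on most of these genes. SREBP-1c, from Srebf1, acts mainly on fatty acid genes and is raised by insulin, and SREBP-2, from Srebf2, acts mainly on sterol genes and is activated when sterols in the endoplasmic reticulum are low. Both are made as membrane precursors that SCAP carries to the Golgi for cutting, while INSIG proteins hold SCAP back, so mRNA of the factors and activity of the factors are different quantities. ChREBP, from Mlxipl, responds to sugar and acts on Pklr (liver pyruvate kinase) and on fatty acid genes. Liver is a main site of both routes, and alveolar type 2 cells of the lung make fatty acids and sterols for surfactant.

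The promoters of these genes are known for 3 short sequences: the sterol regulatory element (SRE), searched as TCACNCCAC, the CCAAT box bound by NF-Y, and the E-box CACGTG. Windows of 300 bases, from 250 before to 50 after an annotated start, were available from RefSeq (GRCm38.p6, a build older than the mm39 of the counts) for 32 members, 16 in each list, and for 27025 genes in all. CCAAT stood on either strand in 28 of the 32 members (87.5%) against 41.1% of all genes, and in 16 of 16 sterol members against 12 of 16 acid members (75%). The exact SRE stood in 2 members, Hmgcs1 and Mlxipl, or 6.25% against 1.44% of all genes, and with 1 mismatch in 13 members (40.6% against 26.7%). CACGTG stood in 6 members (18.8% against 8.09%). Among the 12003 of all these genes whose expression was tested, CCAAT stood in 42.2% and the exact SRE in 1.42%. The SRE with 1 mismatch stood in 29.4% of them and CACGTG in 11.1%. These matches are letters in a window and were not tested as binding sites. The sequences that follow run 5′ to 3′ up to the base before the start and begin 10 bases before their first match. Capitals mark CCAAT or its reverse ATTGG, the SRE, and CACGTG. The genes were picked after the expression values were seen: Hmgcs1 and Mlxipl hold the SRE, Insig1 and Thrsp rose in liver, Acacb fell in both organs, and Mvk and Pmvk are consecutive enzymes that moved in opposite directions in lung. No member without a window is shown: Scd1, Fads1, Dgat2, Sqle, Fdps, Fdft1 and Stard4. For Mlxipl, the window shown is that of a later start and was picked for its SRE. The window of an earlier Mlxipl start, not shown, held CCAAT and CACGTG but no SRE. The window of a later Pmvk start, also not shown, held none of the 3 sequences.
Hmgcs1: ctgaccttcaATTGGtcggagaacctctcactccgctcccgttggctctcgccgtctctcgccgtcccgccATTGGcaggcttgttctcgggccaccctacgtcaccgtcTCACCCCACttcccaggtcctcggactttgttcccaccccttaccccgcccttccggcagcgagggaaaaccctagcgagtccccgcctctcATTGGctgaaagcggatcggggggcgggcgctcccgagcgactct
Mlxipl: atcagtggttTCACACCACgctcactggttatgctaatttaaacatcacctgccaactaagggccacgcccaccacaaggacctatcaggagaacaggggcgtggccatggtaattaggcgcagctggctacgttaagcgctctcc
Insig1: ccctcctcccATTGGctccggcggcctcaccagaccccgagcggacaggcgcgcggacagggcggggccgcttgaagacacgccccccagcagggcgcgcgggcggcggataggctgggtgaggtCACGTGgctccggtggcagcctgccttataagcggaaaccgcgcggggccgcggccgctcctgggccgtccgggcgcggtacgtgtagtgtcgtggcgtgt
Thrsp: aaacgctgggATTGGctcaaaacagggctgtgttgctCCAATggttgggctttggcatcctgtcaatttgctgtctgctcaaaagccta
Acacb: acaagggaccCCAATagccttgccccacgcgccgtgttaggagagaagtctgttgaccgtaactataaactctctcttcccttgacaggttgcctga
Mvk: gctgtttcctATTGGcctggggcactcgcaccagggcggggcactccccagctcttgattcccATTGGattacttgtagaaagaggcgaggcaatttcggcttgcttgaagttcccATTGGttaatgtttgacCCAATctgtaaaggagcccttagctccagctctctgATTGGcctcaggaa
Pmvk: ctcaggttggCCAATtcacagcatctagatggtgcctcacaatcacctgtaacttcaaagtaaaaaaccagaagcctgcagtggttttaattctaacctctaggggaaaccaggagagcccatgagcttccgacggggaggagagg
Their positions in GRCm38.p6 are chr13:119690104-119690350 for Hmgcs1, chr5:135106745-135106890 for Mlxipl, chr5:28071186-28071411 for Insig1, chr5:114165421-114165517 for Acacb, chr5:114444086-114444268 for Mvk and chr3:89454395-89454540 for Pmvk, all on the plus strand, and chr7:97417551-97417639 on the minus strand for Thrsp. The SRE of Hmgcs1 (HMG-CoA synthase) lay 137 to 129 bases before the start, with CCAAT boxes at 237 to 233, 176 to 172 and 45 to 41 and 1 more after the start. The RefSeq start of this Hmgcs1 window did not match a transcript start of the GENCODE M21 annotation, so these distances hold for the RefSeq start. The window of Mvk (mevalonate kinase) held 5 CCAAT boxes between 173 and 10 bases before the start. The window shown for Pmvk (phosphomevalonate kinase) held 1, at 136 to 132. The window of Insig1 held CCAAT at 216 to 212 and CACGTG at 101 to 96 bases before the start.

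Libraries held 10559895 to 15854117 counts. Levels are given as CPM, counts scaled to a common library size after TMM normalization (trimmed mean of M values). The labelled organs matched their defining markers: 5 hepatocyte markers summed to 58318 to 97640 CPM in liver and to at most 109 CPM in lung, and 6 alveolar type 2 markers summed to at least 18771 CPM in lung and to at most 101 CPM in liver. The hepatocyte sum in liver came mostly from Alb. Of the 5 markers in liver, Tat rose (log2 fold change 1.56, edgeR adjusted p = 0.000845), Cps1 fell (-0.62, 0.0149) and 3 were uncalled. In lung Tat rose at a low level (1.23, edgeR adjusted p = 0.0204) and 4 were uncalled. Neutrophil markers moved with the surgery. Their sum went from 14.5 to 16.6 CPM in sham liver to 138 to 189 CPM in CLP liver, and from 825 to 970 CPM in sham lung to 5666 to 8051 CPM in CLP lung, with 5 of 5 and 6 of 6 tested markers higher by edgeR. Alveolar type 2 markers summed to 22605 to 24518 CPM in sham lung and 18771 to 21710 CPM in CLP lung, with 2 of 6 lower. Some lung-type markers moved with surgery in liver at low level. Sftpc, Sftpb and Sftpa1 of 5 tested alveolar type 2 markers, and Scgb1a1 of 2 tested club cell markers, were higher in CLP liver by edgeR. The club cell marker Cyp2f2 was uncalled there (log2 fold change -0.17, edgeR adjusted p = 0.322). Club cell markers summed to 1190 to 1236 CPM in sham liver and 940 to 1209 CPM in CLP liver. Nearly all of that sum was Cyp2f2, at 930 to 1235 CPM over both groups, so it is no measure of club cells in liver. Scgb1a1 stood at 0.444 to 2.11 CPM in sham liver and 9.22 to 22.5 CPM in CLP liver. Sftpc stood at 1.82, 0.296 and 0.957 CPM in sham liver and 6.92, 5.29 and 10.15 CPM in CLP liver. The alveolar type 2 sum in liver came mostly from Abca3 (65.2 to 77.8 CPM). Of 4 tested alveolar macrophage markers in liver, Marco, Chil3 and Car4 were higher and Ear2 lower. Marco was not confined to lung: it stood at 71.9 CPM or more in CLP liver and at 42.6 CPM or less in every lung library. Of 5 tested in lung by edgeR, Chil3 was higher (log2 fold change 0.50) and 3 were lower. These were Car4 (-0.83), Ear2 (-0.72) and Ear1 (-0.60), and Marco was uncalled in lung. The alveolar macrophage list thus moved in both directions in each organ and gives no single reading of these cells. In liver, 3 of 4 Kupffer cell markers were lower, and their sum went from 153 to 184 CPM down to 96.7 to 123 CPM. The part of these markers in the results below was not tested, and in whole tissue fewer cells of a type and less RNA per cell cannot be told apart.

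Single libraries pulled many members the same way. The shares of all genes with these libraries lowest or highest were not counted. What follows may therefore not be particular to the members. In liver, CLP 2 was the lowest of the 3 CLP libraries for 16 of 18 tested acid members and 12 of 20 sterol members, and sham 3 was the highest sham library for 15 of 18 and 14 of 20. In lung, CLP 2 was the highest CLP library for 18 of 20 sterol members and 9 of 18 acid members. That lung library also stood out for white adipocyte markers, which summed to 96.2 CPM there, 28.3 and 28.0 CPM in the other CLP libraries and 39.8 to 50.8 CPM in sham, although 0 of 5 tested adipocyte markers were called by edgeR. Its alveolar type 2 sum, 18771 CPM, was the lowest of the 6 lung libraries. In liver, the adipocyte markers Plin1 and Lep were at 0 in all 6 libraries, while Cidec, a lipid droplet gene, stood at 11.1 to 60.4 CPM and made up most of an adipocyte sum of 11.1 to 60.8 CPM. The part of adipocyte RNA was not tested.

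**Figure D1:**
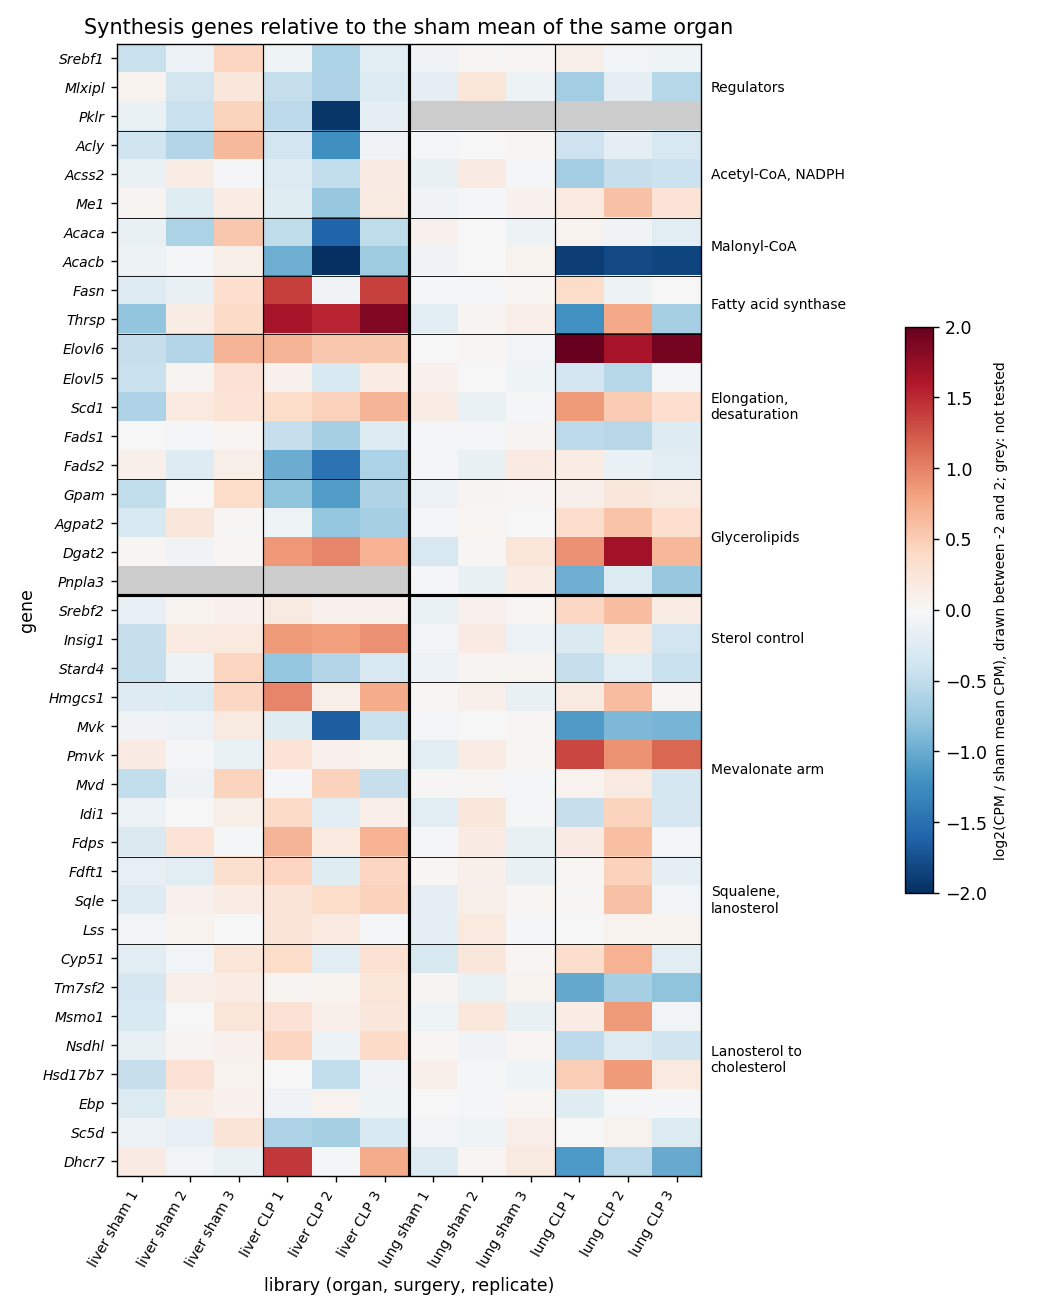
Heat map of each member (rows, by list) in each of the 12 libraries (columns, by organ and surgery). Colour is the log2 ratio of CPM to the mean CPM of that organ's 3 sham libraries, with colours limited to 2 either way; Elovl6 and Pmvk are above and Acacb below the sham mean in all 3 lung CLP libraries, and liver CLP 2 is the lowest CLP library for 16 of 18 tested acid members.

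In liver the acid branch did not move as a block. Of 18 tested acid members, 2 rose (Thrsp and Dgat2) and 4 fell (Fads2, Fads1, Gpam and Acacb) at an adjusted p below 0.05 by edgeR's quasi-likelihood test with Benjamini-Hochberg adjustment. Among all 12392 genes tested in liver, 21.4% were higher, 21.0% lower and 42.3% called in either direction, so the 33.3% of acid members called lies under the share of all genes. The median log2 fold change of the acid members was -0.38 against -0.01 for all genes. That acid median was -0.18 without CLP 2, -0.17 without sham 3 and -0.57 with library totals alone. Pnpla3, a lipase-like protein of lipid droplets, was too low to test in liver, with 0.0726 to 0.478 CPM in sham and 0.160 to 1.03 CPM in CLP.

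The regulators of the acid branch were not called with the settings used throughout. Srebf1 stood at 45.0, 56.5 and 82.1 CPM in sham libraries 1 to 3 and at 57.6, 39.3 and 52.3 CPM in CLP libraries 1 to 3, with overlapping groups and a log2 fold change of -0.30 ± 0.23 (SE; edgeR adjusted p = 0.336). Mlxipl had a log2 fold change of -0.45 (edgeR adjusted p = 0.0606), and its target Pklr one of -0.72 (edgeR adjusted p = 0.246). Mlxipl was below the threshold of 0.05 in 7 of 14 alternatives, among them no filter on low counts (edgeR adjusted p = 0.00770), library totals (0.0150) and the fit without sham 2 (-0.60, 0.0180). Pklr was below it in 1, the replicate block (edgeR adjusted p = 0.0255).

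The 2 acid members that rose were Thrsp and Dgat2. Thrsp (ENSMUSG00000035686) encodes Spot 14, a protein linked to the rate of fatty acid synthesis. Its level was 85.7, 165 and 194 CPM in the sham livers and 464, 427 and 534 CPM in the CLP livers, or 148 ± 56.0 against 475 ± 54.5 CPM (mean ± SD, n = 3 libraries each). All 3 CLP livers were above all sham livers, and the fold change of Thrsp was 3.21 (log2 1.68 ± 0.28, edgeR adjusted p = 0.00276). Dgat2 (ENSMUSG00000030747) encodes the enzyme of the last step of triglyceride synthesis that uses newly made fatty acids. Dgat2 went from 262, 243 and 261 CPM in sham to 465, 503 and 415 CPM in CLP, or from 255 ± 10.7 to 461 ± 44.5 CPM, with no overlap. Its fold change was 1.81 (log2 0.85 ± 0.12, edgeR adjusted p = 0.000838). Both calls held under all 14 alternatives.

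The desaturases of polyunsaturated fatty acids fell together. Fads2 (ENSMUSG00000024665), the delta-6 desaturase, stood at 527, 409 and 534 CPM in sham and 245, 176 and 315 CPM in CLP liver. No CLP liver reached the lowest sham liver, and the log2 fold change of Fads2 was -0.998 ± 0.22 (edgeR adjusted p = 0.00688). That call held under all 14 alternatives. Fads1, the delta-5 desaturase next to it in the pathway, stood at 317, 310 and 328 CPM in sham and 230.4, 200.3 and 262 CPM in CLP, again without overlap. Fads1 had a log2 fold change of -0.46 ± 0.13 (edgeR adjusted p = 0.0191), and its call ended without CLP 1 (edgeR adjusted p = 0.0543) or sham 3 (0.0609). The elongase Elovl5, which acts on the same acids, had a log2 fold change of -0.01 (edgeR adjusted p = 0.971).

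Gpam, the mitochondrial enzyme that starts glycerolipid synthesis, and Acacb, the acetyl-CoA carboxylase at the mitochondrion whose product restrains fatty acid oxidation, also fell in liver. Acacb stood at 151, 159 and 175 CPM in sham and 82.4, 36.8 and 99.0 CPM in CLP, without overlap, with a log2 fold change of -1.16 ± 0.33 (edgeR adjusted p = 0.0279). That call is fragile: the edgeR adjusted p of Acacb was 0.130 with no filter on low counts, 0.0649 without CLP 1, 0.0623 without sham 1, 0.0639 without sham 2 and 0.0811 without sham 3. The log2 fold change of Gpam was -0.83 ± 0.23 (edgeR adjusted p = 0.0208), without overlap between groups. The call for Gpam ended without CLP 1 (edgeR adjusted p = 0.0610), CLP 2 (0.0631), sham 2 (0.0540) or sham 3 (0.0506). Agpat2, the next enzyme of glycerolipid synthesis, had a log2 fold change of -0.47 (edgeR adjusted p = 0.103), and of -0.71 without CLP 1 (0.0137).

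The central enzymes of fatty acid synthesis and desaturation were not called in liver with the settings used throughout. Fasn, fatty acid synthase, stood at 352, 382 and 531 CPM in sham and at 1102, 403 and 1091 CPM in CLP. CLP 1 and CLP 3 were above every sham liver and CLP 2 was not, and the log2 fold change of Fasn was 1.04 ± 0.38 (edgeR adjusted p = 0.0668). Without CLP 2 the log2 fold change of Fasn was 1.38 (edgeR adjusted p = 0.000755), and Fasn was also called by DESeq2 (adjusted p = 0.00621) and in the edgeR fit of all 12 libraries (0.0165). Scd1, the stearoyl-CoA desaturase, was the most abundant member in liver, at 3778, 6620.4 and 7035 CPM in sham and 7520.0, 7998 and 9284 CPM in CLP. The groups of Scd1 did not overlap, but its log2 fold change of 0.51 ± 0.23 did not pass (edgeR adjusted p = 0.109; 0.0426 with no filter on low counts and 0.0302 with the replicate block). For the elongase Elovl6, sham 3 (165 CPM) stood apart from sham 1 and 2 (74.5 and 68.7 CPM), and the CLP livers held 165, 149 and 149 CPM. Its log2 fold change was 0.59 ± 0.33 (edgeR adjusted p = 0.194), and 1.11 without sham 3 (edgeR adjusted p = 0.000955). Acaca, the cytosolic acetyl-CoA carboxylase that commits carbon to synthesis, had a log2 fold change of -0.80 (edgeR adjusted p = 0.145), and passed the threshold with the replicate block. Acly, which supplies cytosolic acetyl-CoA from citrate, had one of -0.48, Me1 (malic enzyme, a source of NADPH) one of -0.23, and Acss2 (acetyl-CoA from acetate) one of -0.17, all uncalled.

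Fewer sterol members were called in liver. Of 20 tested, 2 rose (Insig1 and Fdps) and 1 fell (Sc5d), or 15% against the 42.3% of all genes, while 15 of 20 had a log2 fold change above 0. The median log2 fold change of the sterol members was 0.15 with TMM scaling, 0.23 without CLP 2 and 0.25 without sham 3. It was -0.05, with 8 of 20 above 0, when library totals alone were used, a scaling that moved the median of all genes in liver to -0.21. Counting both lists, 9 of 38 tested members were called (23.7%), and 12 of 38 had CLP and sham values that did not overlap, against 55.7% of all genes.

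Insig1 (ENSMUSG00000045294), which retains the SCAP-SREBP complex in the endoplasmic reticulum and is itself an SREBP target, had the clearest rise of the sterol list in liver. Its level was 53.9, 83.6 and 84.3 CPM in sham and 134, 131 and 139 CPM in CLP, or 73.9 ± 17.3 against 134 ± 4.23 CPM. All CLP livers were above all sham livers, the fold change of Insig1 was 1.82 (log2 0.86 ± 0.17, edgeR adjusted p = 0.00411), and the call held under all 14 alternatives. Srebf2 itself stood at 61.7, 72.1 and 73.1 CPM in sham and 77.8, 73.3 and 73.2 CPM in CLP. The Srebf2 groups did not overlap, but by a margin far under their spread, and its log2 fold change was 0.12 ± 0.10 (edgeR adjusted p = 0.375).

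Hmgcs1, Fdps and Sqle, enzymes before the sterol rings form, had log2 fold changes above 0, and Fdps passed the test. Hmgcs1, which makes HMG-CoA, stood at 99.7, 99.0 and 160 CPM in sham and 234, 129 and 200.2 CPM in CLP, with overlap and a log2 fold change of 0.65 ± 0.27 (edgeR adjusted p = 0.0847). Without CLP 2 that of Hmgcs1 was 0.87 (edgeR adjusted p = 0.0195), and without sham 3 it was 0.92 (0.0272). Fdps, farnesyl diphosphate synthase, stood at 9.23, 13.7 and 11.0 CPM in sham and 18.1, 12.9 and 18.4 CPM in CLP. Its groups overlapped through CLP 2, and its log2 fold change of 0.54 ± 0.19 barely passed (edgeR adjusted p = 0.0492). The call for Fdps ended in 8 of 14 alternatives, among them the replicate block (0.0794), library totals (0.135), upper-quartile scaling (0.0763), limma-voom (0.0541) and the fits without CLP 1 (0.130), CLP 3 (0.131), sham 1 (0.137) or sham 3 (0.125). With library totals its value was 0.35. Part of the Fdps exons overlaps the protein-coding gene Gm43738 on the same strand, so some reads may belong to that gene. Sqle, squalene epoxidase, stood at 92.7, 117 and 122 CPM in sham and 132, 143 and 152 CPM in CLP. All CLP livers were above all sham livers for Sqle, yet its log2 fold change of 0.36 ± 0.13 just missed the threshold (edgeR adjusted p = 0.0518).

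Late enzymes of the sterol route differed from one another. Sc5d, lathosterol oxidase, fell, from 174, 169 and 226 CPM in sham to 123, 119 and 153 CPM in CLP without overlap. Its log2 fold change was -0.53 ± 0.15 (edgeR adjusted p = 0.0247), and the call for Sc5d ended without CLP 1 (0.0777), CLP 2 (0.0596) or sham 3 (0.0859). Dhcr7, which acts on the product of Sc5d, had sham levels of 74.6, 64.0 and 61.0 CPM and CLP levels of 177, 65.2 and 111 CPM. CLP 2 lay within the sham range, and the log2 fold change of Dhcr7 was 0.83 ± 0.33 (edgeR adjusted p = 0.0888), or 1.12 without CLP 2 (0.00402). The other 13 sterol members were uncalled, with log2 fold changes from -0.67 for Mvk and -0.55 for Stard4 (a sterol carrier) to 0.26 for Nsdhl. Stard4 was called without sham 1 (-0.74, edgeR adjusted p = 0.0244) and Nsdhl without CLP 2 (0.41, 0.0164). Between these lay Mvd, Pmvk, Idi1 and Fdft1, which act before the sterol rings form, and Lss, Cyp51, Msmo1, Tm7sf2, Ebp and Hsd17b7, which form and modify the rings. Idi1 was low in liver, at 2.16 to 3.30 CPM, with a log2 fold change of 0.12 ± 0.24, so a modest change could be missed.

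**Figure D2:**
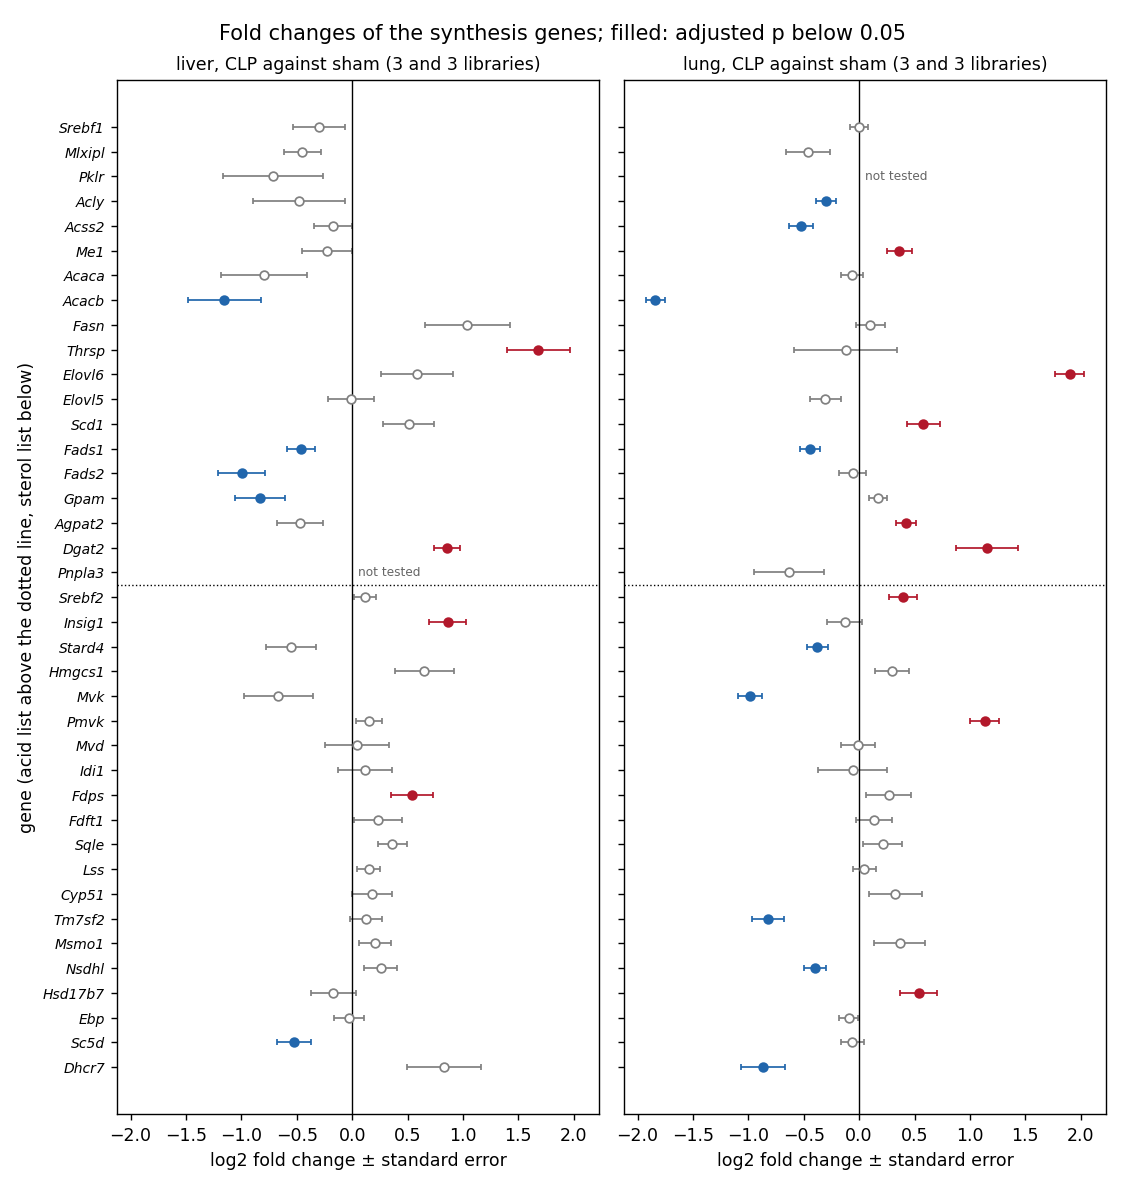
Log2 fold change, CLP against sham, for each tested member in liver and in lung; points are edgeR estimates, bars are 1 SE, and filled points passed an adjusted p below 0.05. In lung the estimates run from -1.84 (Acacb) to 1.90 (Elovl6), and in liver from -1.16 (Acacb) to 1.68 (Thrsp).

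In lung more members were called, in both directions. Of 18 tested acid members, 5 rose (Elovl6, Scd1, Dgat2, Agpat2 and Me1) and 4 fell (Acacb, Fads1, Acss2 and Acly). Of 20 sterol members, 3 rose (Pmvk, Srebf2 and Hsd17b7) and 5 fell (Mvk, Tm7sf2, Dhcr7, Nsdhl and Stard4). Among all 15441 genes tested in lung, 23.9% were higher, 24.9% lower and 48.9% called in either direction, against 50% of acid members, 40% of sterol members and 44.7% of both together. The members' shares are near the background and their medians near 0, -0.06 for the acid list and 0.02 for the sterol list against -0.03 for all genes. The sign of these medians depended on the setting: the sterol median was -0.09 with library totals, which moved the median of all genes in lung to -0.13, and -0.06 without CLP 2, and the acid median was 0.07 without CLP 3. CLP and sham values did not overlap for 19 of 38 tested members, against 59.7% of all genes. Pklr was too low to test in lung.

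The carboxylases separated in lung. Acacb (ENSMUSG00000042010) fell from 44.0, 46.3 and 48.3 CPM in sham to 12.6, 13.2 and 13.0 CPM in CLP, or from 46.2 ± 2.16 to 12.9 ± 0.304 CPM. The groups of Acacb lay far apart with little spread in either, and the log2 fold change was -1.84 ± 0.08 (edgeR adjusted p = 1.144e-05), called under all 14 alternatives. Acaca, the carboxylase of the synthesis route, had a log2 fold change of -0.06 ± 0.10 in the same libraries (edgeR adjusted p = 0.631). Fasn, which uses the malonyl-CoA that Acaca makes, stood at 680.3, 677 and 706 CPM in sham and 889, 639 and 685 CPM in CLP. The Fasn groups overlapped, with CLP 1 highest and CLP 2 lowest of all 6, and its log2 fold change was 0.10 ± 0.13 (edgeR adjusted p = 0.556).

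Elovl6 and Scd1, which lengthen and desaturate the palmitate made by Fasn, rose. Elovl6 (ENSMUSG00000041220) went from 9.82, 10.1 and 9.47 CPM in sham to 42.2, 30.6 and 36.9 CPM in CLP, or from 9.79 ± 0.312 to 36.6 ± 5.78 CPM. Every CLP lung was above every sham lung, and the fold change of Elovl6 was 3.73 (log2 1.90 ± 0.13, edgeR adjusted p = 5.483e-05), called under all 14 alternatives. Scd1 stood at 1243, 1027 and 1111 CPM in sham and 2025, 1610.0 and 1421 CPM in CLP, without overlap. The log2 fold change of Scd1 was 0.58 ± 0.15 (edgeR adjusted p = 0.0124), and the call ended in the fit of all 12 libraries (0.0907) and without sham 2 (0.0591). Scd2, a paralog of Scd1 with the same reaction that is not among the 39, fell in lung from 1262, 1149 and 1067 CPM to 511, 457 and 759 CPM. Its log2 fold change was -1.01 ± 0.19 (edgeR adjusted p = 0.00317). Scd1 and Scd2 are similar in sequence, and how reads that fit both were counted is not stated in the labels.

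Genes that supply carbon and NADPH to the acid branch divided in lung. Acss2 stood at 36.3, 44.6 and 39.2 CPM in sham and 24.6, 29.2 and 29.8 CPM in CLP, without overlap, and fell by 0.52 ± 0.11 on the log2 scale (edgeR adjusted p = 0.00549). Its exons overlap those of Ggt7 and Gss on the other strand, and the strand setting of the counting is not given. Acly fell by 0.30 ± 0.09 (edgeR adjusted p = 0.0213), a call that ended in the fit of all 12 libraries (0.442) and without CLP 1 (0.0712), sham 1 (0.0545), sham 2 (0.0671) or sham 3 (0.100). Me1 rose by 0.36 ± 0.11 (edgeR adjusted p = 0.0286), a call that ended with library totals (0.104), upper-quartile scaling (0.106), the fit of all 12 libraries (0.184) and without sham 1 (0.101) or sham 2 (0.0891). The Acly and Me1 groups did not overlap.

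Desaturases and glycerolipid enzymes also divided in lung. Fads1 fell, from 130.3, 130.0 and 137 CPM in sham to 91.9, 90.3 and 110.4 CPM in CLP without overlap, with a log2 fold change of -0.44 ± 0.09 (edgeR adjusted p = 0.00505), called under all 14 alternatives. Fads2, its neighbour in the pathway, had a log2 fold change of -0.06 ± 0.12 (edgeR adjusted p = 0.726). Dgat2 rose from 17.2, 22.0 and 25.5 CPM to 40.5, 69.2 and 34.3 CPM, a log2 fold change of 1.15 ± 0.28 (edgeR adjusted p = 0.0122). CLP 2, the library with the most adipocyte marker RNA, was the highest for Dgat2, and without it the log2 fold change was 0.83. With no filter on low counts the edgeR adjusted p of Dgat2 was 0.0950. Agpat2 rose by 0.43 ± 0.09 (edgeR adjusted p = 0.00582; 0.0849 in the fit of all 12 libraries), and its exons overlap those of Egfl7 on the other strand. Gpam had a log2 fold change of 0.17 ± 0.08 (edgeR adjusted p = 0.129).

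Srebf1 in lung stood at 105, 112 and 113 CPM in sham and 119.65, 106 and 104 CPM in CLP. These groups overlapped, and the 1.00-fold ratio of Srebf1 came with an SE of 0.08 on the log2 scale (edgeR adjusted p = 0.981). Thrsp, which rose in liver, was low in lung, at 3.73, 4.48 and 4.77 CPM in sham and 1.86, 7.35 and 2.73 CPM in CLP. CLP 2 was above and the other CLP lungs below the sham range of Thrsp. Its log2 fold change was -0.12 ± 0.46 (edgeR adjusted p = 0.852) with CLP 2 and -0.89 (0.0224) without it. The adipocyte marker sum of CLP 2 stands beside this value, and its part was not tested. Without CLP 1 or CLP 3 the log2 fold change of Thrsp was 0.23 or 0.12, both uncalled. Mlxipl (-0.46), Pnpla3 (-0.63) and Elovl5 (-0.31) had log2 fold changes below 0 that did not pass. Mlxipl passed without CLP 2 (-0.60, edgeR adjusted p = 0.0383) and Elovl5 without CLP 3 (-0.43, 0.00513).

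In the sterol branch of lung, 2 consecutive kinases of the mevalonate pathway moved in opposite directions. Mvk (ENSMUSG00000041939), which phosphorylates mevalonate, went from 19.8, 20.4 and 20.7 CPM in sham to 9.24, 10.9 and 10.6 CPM in CLP, or from 20.3 ± 0.467 to 10.3 ± 0.894 CPM. Pmvk (ENSMUSG00000027952), which phosphorylates the product of Mvk, went from 51.9, 66.3 and 62.0 CPM to 151, 112 and 133 CPM, or from 60.1 ± 7.41 to 132 ± 19.6 CPM. Neither gene's groups overlapped. The log2 fold change was -0.99 ± 0.11 for Mvk (edgeR adjusted p = 0.000273) and 1.13 ± 0.13 for Pmvk (edgeR adjusted p = 0.000367), and both calls held under all 14 alternatives. Mvd, the enzyme after Pmvk, had a log2 fold change of -0.01 (edgeR adjusted p = 0.955), and Fdps, Fdft1 and Sqle, which follow, had 0.27, 0.13 and 0.21, all uncalled.

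Among enzymes of the later sterol steps in lung, 3 fell and 1 rose. Tm7sf2, a sterol C14 reductase, stood at 12.6, 11.0 and 12.7 CPM in sham and 5.98, 7.68 and 6.91 CPM in CLP, without overlap, with a log2 fold change of -0.82 ± 0.14 (edgeR adjusted p = 0.00229), called under all 14 alternatives. Part of its exons lies on the same strand as Vps51, so some reads may belong to that gene. Dhcr7 stood at 9.90, 12.2 and 13.5 CPM in sham and 5.36, 8.24 and 5.91 CPM in CLP, also without overlap. The log2 fold change of Dhcr7 was -0.87 ± 0.20 (edgeR adjusted p = 0.00750; 0.0515 in the fit of all 12 libraries). Nsdhl, a sterol dehydrogenase, fell by 0.40 ± 0.10 (edgeR adjusted p = 0.0108; 0.0576 without sham 3). Hsd17b7, a ketosteroid reductase of the same demethylation steps, rose by 0.54 ± 0.17 (edgeR adjusted p = 0.0265). The call for Hsd17b7 ended with library totals (0.0577), upper-quartile scaling (0.0625), the fit of all 12 libraries (0.0712) and without CLP 1 (0.0550), sham 1 (0.0569), sham 2 (0.0792) or sham 3 (0.0779). Stard4 fell by 0.38 ± 0.10 (edgeR adjusted p = 0.0122; 0.110 in the fit of all 12 libraries and 0.0681 without sham 3). Lss, Cyp51, Msmo1, Sc5d and Ebp, the other enzymes of the ring steps, and Idi1 were uncalled, with log2 fold changes from -0.10 for Ebp to 0.37 for Msmo1. Idi1 was again low, at 1.16 to 2.18 CPM in lung, with a log2 fold change of -0.06 ± 0.31. Cyp51 was called without CLP 3 (0.57, edgeR adjusted p = 0.0284).

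The regulators of the sterol branch in lung were Srebf2, which rose, and Insig1, which was not called. Srebf2 stood at 168, 195 and 189 CPM in sham and 244, 281 and 203 CPM in CLP, without overlap, with a log2 fold change of 0.40 ± 0.13 (edgeR adjusted p = 0.0295). The call for Srebf2 ended with library totals (0.0817), upper-quartile scaling (0.0904) and without CLP 1 (0.0696), sham 1 (0.116), sham 2 (0.0583) or sham 3 (0.0602). Insig1 stood at 65.2, 75.7 and 62.4 CPM in sham and 55.7, 78.2 and 51.9 CPM in CLP. CLP 2 was above and the other CLP lungs below the sham range of Insig1, and its log2 fold change was -0.13 ± 0.16 (edgeR adjusted p = 0.534). Hmgcs1 stood at 99.7, 104 and 87.5 CPM in sham and 109, 149 and 99.1 CPM in CLP, overlapping, with a log2 fold change of 0.30 ± 0.15 (edgeR adjusted p = 0.140), and of 0.45 without CLP 3 (0.0256).

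**Figure D3:**
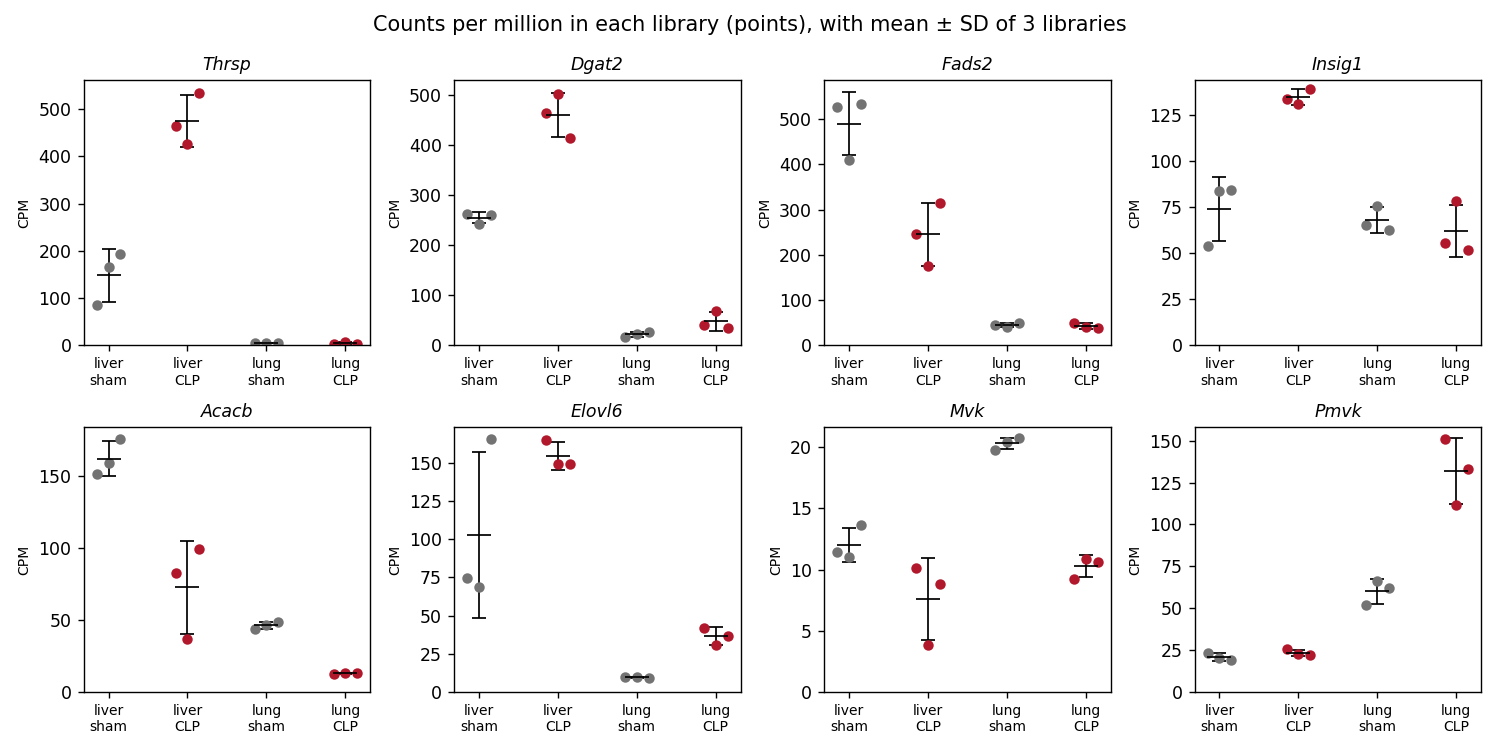
CPM of 8 members in each library, sham and CLP in liver and lung; points are libraries and bars are the mean ± SD of 3 libraries. Acacb is lower in every CLP library than in every sham library of both organs, Insig1 and Thrsp separate the groups in liver and overlap in lung, and Mvk and Pmvk part in lung.

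Per kilobase of exon, the order of the members differed between organs in sham tissue. Scd1 was highest in both, at 1188 CPM per kb in liver and 230.3 in lung. In liver it was followed by Fads2 (148.7 CPM per kb), Elovl5 (127), Dgat2 (82.7), Thrsp (67.7) and Fads1 (66.2), and Srebf1 (10.9) and Srebf2 (9.60) ranked 29 and 31. In lung Elovl5 (105 CPM per kb), Fasn (62.8), Acly (53.1) and Pmvk (35.1) followed, and Srebf2 (25.6) and Srebf1 (19.6) ranked 8 and 11. These levels use exon lengths of an older annotation. Scd1 alone made up 55.3% to 74.0% of the summed CPM of the acid list in liver and 33.3% to 49.1% in lung, so that sum mostly follows 1 gene.

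**Figure D4:**
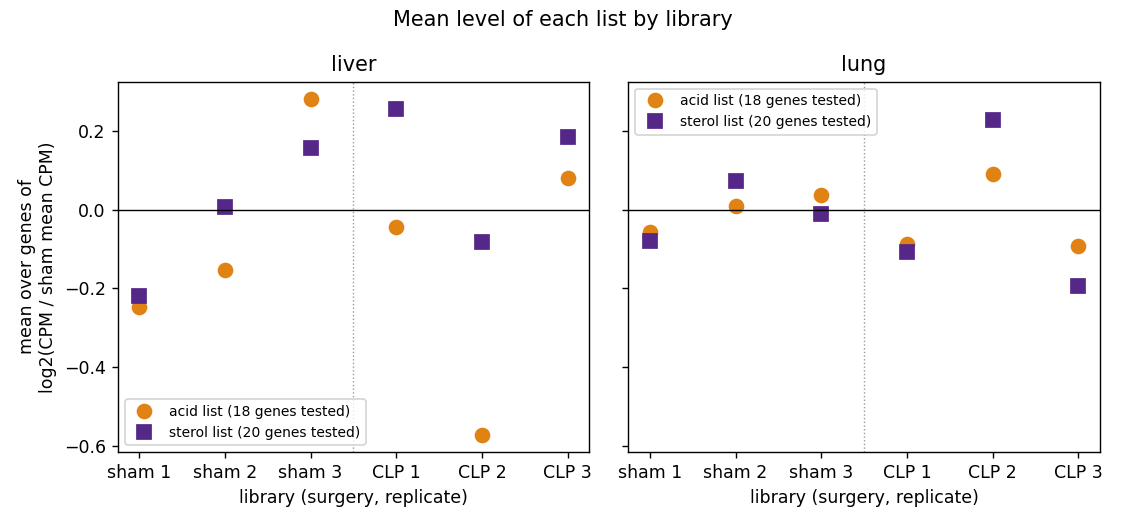
Mean over the tested members of each list of the log2 ratio of CPM to the organ's sham mean CPM, 1 point per library. In liver the acid mean of CLP 2 (-0.57) lies below the other 5 libraries and that of sham 3 (0.28) above them, and in lung the sterol mean of CLP 2 (0.23) is the highest.

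Of the 23 members called in at least 1 organ, 3 were called in both, each in the same direction: Acacb and Fads1 fell and Dgat2 rose. No member was called in opposite directions, 6 were called in liver alone, 14 in lung alone and 16 in neither, which does not by itself show that the organs differ. The difference was therefore tested as the log2 response in lung minus that in liver, in 1 edgeR model of all 12 libraries. It was called for 10 of 39 members (25.6%), 5 higher and 5 lower, against 17.7% of 16111 genes, with 8.89% higher and 8.84% lower. The 39 include Pnpla3, too low to test in liver, and Pklr, too low to test in lung, which passed the filter over all 12 libraries. Both were uncalled for the difference, with SEs of 0.84 and 1.20.

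Pmvk, Insig1 and Tm7sf2 differed between organs under all 19 alternatives. The response of Pmvk was higher in lung by 0.95 ± 0.18 on the log2 scale (edgeR adjusted p = 0.00330), with liver levels of 23.5, 20.5 and 19.1 CPM in sham and 25.5, 22.4 and 22.0 CPM in CLP. The response of Insig1 had a difference of -1.02 ± 0.25 (edgeR adjusted p = 0.0143), and that of Tm7sf2 had a difference of -0.97 ± 0.20 (edgeR adjusted p = 0.00457). Liver levels of Tm7sf2 were 67.9, 93.9 and 94.2 CPM in sham and 88.5, 89.8 and 101 CPM in CLP, which overlapped, so Tm7sf2 and Pmvk moved in lung and were uncalled in liver while Insig1 did the reverse. The pattern for Mvk was not of this kind: its difference was -0.34 (edgeR adjusted p = 0.548), with log2 fold changes of -0.67 in liver and -0.99 in lung. Without liver CLP 2 the difference for Mvk was -0.61 (edgeR adjusted p = 0.0468), and without liver CLP 1 it was 0.02.

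The other differences depended on single libraries or settings. Gpam had a difference of 0.97 ± 0.25 (edgeR adjusted p = 0.0187; 0.0513 without lung sham 1), from 70.0, 98.2 and 127 to 56.2, 45.3 and 64.8 CPM in liver and from 180.2, 204 and 201 to 209, 229 and 220.1 CPM in lung. Agpat2 had one of 0.87 ± 0.24 (edgeR adjusted p = 0.0265), from 90.0, 129 and 113 to 105, 65.0 and 69.8 CPM in liver and from 26.5, 27.7 and 26.9 to 34.5, 40.2 and 34.2 CPM in lung. The liver groups of Agpat2 overlapped and its lung groups did not, and its call ended without liver CLP 3, liver sham 2, lung CLP 2 or any 1 lung sham library (0.0525 to 0.0626). Dhcr7 had the difference of -1.72 ± 0.44 (edgeR adjusted p = 0.0185), lost with no filter on low counts (0.0868), limma-voom (0.0607), the replicate block (0.0612) and without liver sham 3 (0.0517), lung CLP 1 (0.0541) or lung sham 3 (0.0501). Fads2 had one of 0.91 ± 0.27 (edgeR adjusted p = 0.0329), lost without liver sham 3 (0.0580), lung CLP 1 (0.0832), lung sham 1 (0.0723) or lung sham 2 (0.0837). Nsdhl had one of -0.68 ± 0.18 (edgeR adjusted p = 0.0219), lost with library totals (0.0510) and without liver CLP 1 or 3, liver sham 1 or 2, lung CLP 1 or lung sham 1 or 3 (0.0509 to 0.0965).

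Elovl6 and Thrsp had the widest differences in the positive and negative direction, and the least stable calls. The response of Elovl6 was higher in lung by 1.29 ± 0.40 (edgeR adjusted p = 0.0439). That call ended in 11 of 19 alternatives: with no filter on low counts (0.170), with limma-voom (0.0915), and without any 1 of the 9 libraries other than the liver shams (0.0541 to 0.0990). Thrsp had a difference of -1.83 ± 0.58 (edgeR adjusted p = 0.0485), lost in 14 of 19 alternatives. These were DESeq2's size factors (0.0511), library totals (0.0547), no filter on low counts (0.184), limma-voom (0.0578) and the fits without any 1 library other than liver sham 3 and lung CLP 2 (0.0757 to 0.112). Fasn was uncalled for the difference (-0.96, edgeR adjusted p = 0.150) and called without liver CLP 2 (0.00672). Acacb, which fell in both organs, had a difference of -0.71 (edgeR adjusted p = 0.216), and of -0.96 without liver CLP 2 (0.00100). Me1 and Hsd17b7, also uncalled, were called without liver CLP 3 (0.87, edgeR adjusted p = 0.0236) and without liver sham 1 (0.95, 0.0221).

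Genes that surround these routes were counted from lists of their own. Of 13 genes of SREBP processing and sterol sensing, 2 rose and 4 fell in liver, and 1 rose and 2 fell in lung, or 46.2% and 23.1% against 42.3% and 48.9% of all genes. The liver X receptors, which sense oxysterols, were the lowest in p in liver: Nr1h2 had a log2 fold change of 0.66 (edgeR adjusted p = 0.000767) and Nr1h3 one of -0.60 (0.000864). In lung the lowest in p were Mbtps1, the site-1 protease that cuts SREBPs, at -0.40 (edgeR adjusted p = 0.00392), and Nr1h3 at -0.51 (0.00949).

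Of 22 other synthesis enzymes, 3 rose and 5 fell of 21 tested in liver, and 5 rose and 7 fell of 20 tested in lung, or 38.1% and 60% against 42.3% and 48.9% of all genes. Pgd, an NADPH source of the pentose phosphate pathway, rose in liver from 31.6, 24.8 and 29.6 CPM in sham to 54.1, 48.8 and 53.0 CPM in CLP without overlap. Its log2 fold change was 0.86 in liver (edgeR adjusted p = 0.000608) and 1.15 in lung (0.00130). Lbr, which shares the sterol C14 reductase activity of Tm7sf2, rose in lung from 95.6, 94.7 and 96.5 CPM to 136, 137 and 138 CPM. Its log2 fold change was 0.52 in lung (edgeR adjusted p = 0.000464) and 0.76 in liver (0.00197), where Tm7sf2 was uncalled.

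Of 8 genes of sterol export, esterification and LXR response, 2 rose and 2 fell in liver, and 2 rose and 1 fell of 6 tested in lung, or 50% in each organ against 42.3% and 48.9% of all genes. Abca1, the cholesterol efflux pump, rose in liver from 308, 456 and 293 CPM to 1311, 1466 and 1154 CPM (log2 1.89, edgeR adjusted p = 0.000218). Soat2, which esterifies cholesterol, rose in both organs, by 1.03 in liver (edgeR adjusted p = 0.000270) and by 2.41 in lung (6.584e-05), where it stood at 5.03, 5.23 and 3.58 CPM in sham and 29.0, 22.1 and 22.7 CPM in CLP. Lpcat3 rose by 0.25 in lung (edgeR adjusted p = 0.0432) and fell in liver, with a log2 fold change of -0.83 (0.000687). The organ difference for Lpcat3 was 1.05 (edgeR adjusted p = 0.000363). Of 6 insulin signalling genes, 1 rose in liver, and 2 rose and 2 fell in lung, or 16.7% and 66.7% against the same shares of all genes. Irs2, an insulin receptor substrate, rose in liver from 33.8, 42.7 and 31.1 CPM to 140.0, 177 and 119 CPM (log2 2.02, edgeR adjusted p = 0.000126), while Akt2 was uncalled there (-0.19, edgeR adjusted p = 0.105). Irs1, its paralog, fell in lung from 42.4, 41.3 and 45.8 CPM to 9.32, 7.84 and 11.2 CPM (log2 -2.19, edgeR adjusted p = 3.023e-05), and Akt2, a kinase downstream of both, rose by 0.40 (0.00469).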

How the data were processed

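The authors deposited whole-number gene counts, not normalized, for 12 libraries in 1 table. Per the labels' protocols, total RNA went into stranded TruSeq libraries sequenced on a NextSeq500. Per the submitters' processing notes, the build was mm39 and the tools included FastQC, STAR 2.7.10a, DESeq2 and featureCounts, with no role or order stated. The annotation release, the strand setting and the handling of reads with several matches are not stated there. Symbols were matched by identifier, and 3333 identifiers had none.

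Counts were tested in R 4.3.3 with edgeR 4.0.16: filter by group (minimum count 10, total 15), TMM scaling, robust quasi-likelihood test, two-sided, Benjamini-Hochberg adjustment over all genes tested, threshold 0.05. Each organ was fitted on its 6 libraries and the organ difference on all 12. The SE is the log2 fold change divided by the square root of F, an approximation. Alternatives used limma 3.58.1, DESeq2 1.42.0, other scalings, no filter, a replicate block and each library left out. Replicate pairs differed by 5.28 to 37.6 chi-square units per degree of freedom (genes with at least 20 counts), so none was counted as 1. The edgeR fit was tested on simulated counts, where the share of false calls in liver came out above the threshold, which bears on liver calls near it.

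The members and lists were chosen with earlier results of these data known. Values in every library are given for Srebf1, Srebf2, Insig1, the 4 members of lowest p and 2 of highest mean per list and organ, and the 3 of lowest p in each direction of the organ difference; other lists name their 2 members of lowest p, except for 1 item that is not reported here. Acacb, Thrsp and Elovl6 in the other organ, Dhcr7 in liver, and Scd2 were added after their values were seen. Of 41 promoter windows, 35 matched an annotated transcript start. In an older annotation (GENCODE M21), exons of Srebf1, Pklr, Acss2, Agpat2, Cyp51 and Fdft1 overlap protein-coding genes on the other strand, and those of Fdps and Tm7sf2 on the same strand; non-coding genes overlap Elovl6, Me1, Mlxipl, Hmgcs1, Idi1 and Lss on the other strand. No genome of the files' build was used, so no mm39 positions are given.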

Additional observations from a re-analysis of the deposited data

Results flagged for a closer look

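The response to CLP differed between lung and liver by the test of the difference itself for 10 members. In log2 units, lung minus liver, it was higher in lung for Elovl6 (1.29), Gpam (0.97), Pmvk (0.95), Fads2 (0.91) and Agpat2 (0.87), and lower in lung for Thrsp (-1.83), Dhcr7 (-1.72), Insig1 (-1.02), Tm7sf2 (-0.97) and Nsdhl (-0.68). The differences of Pmvk, Insig1 and Tm7sf2 held under all 19 alternatives, while those of Elovl6 and Thrsp were lost in 11 and 14 of 19.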

How the results depend on the processing

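No member called with the settings of the report changed direction under any alternative. Thrsp in lung and the organ difference for Mvk, both uncalled there, were called without 1 library and took the other sign, uncalled, without another. In liver, 9 members were called, against 14 with DESeq2's test and 16 in the fit of all 12 libraries. The 2 sterol members that rose in liver became 1 with library totals, 1 with upper-quartile scaling, 5 with DESeq2's test and 4 in the fit of all 12 libraries. The 1 sterol member that fell in liver became 2 with library totals and with upper-quartile scaling, and 3 in the fit of all 12 libraries. In lung, the 17 called members became 10 in the fit of all 12 libraries, where 2 acid members rose in place of 5 and 3 sterol members fell in place of 5. The 3 sterol members that rose in lung became 1 with library totals and with upper-quartile scaling. The 1 acid member with a lower response in lung than in liver, Thrsp, became 0 with DESeq2's size factors, library totals, no filter on low counts and limma-voom. The cause of these shifts was not tested. With 1 mismatch allowed, 13 promoters held the SRE in place of 2.

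Leaving out 1 library at a time gave 5 to 11 called members in liver (2 to 3 acid higher, 1 to 4 acid lower, 1 to 5 sterol higher, 0 to 2 sterol lower) and 12 to 20 in lung (3 to 5, 3 to 6, 1 to 5 and 3 to 5 in the same order). For the organ difference the range was 4 to 11 (0 to 4, 0 to 2, 1 to 2 and 2 to 5). Liver without CLP 1 gave 5 and without sham 3 gave 6.

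Library totals gave 30.8% of liver calls as higher in place of 50.4%, 38.0% of lung calls in place of 49.0%, and 65.9% of calls for the organ difference in place of 50.1%. Upper-quartile scaling gave 40.3% in liver and 37.2% in lung.

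With the replicate number as a block, 15 members were called in liver in place of 9, with 7 acid members lower in place of 4 and 2 sterol members lower in place of 1. Same-numbered libraries did not deviate together strongly: correlations of their deviations from group means were 0.04, 0.10 and 0.09 in liver and 0.01, 0.07 and 0.03 in lung, 0.13, 0.05 and 0.14 between liver and lung CLP, and -0.01, 0.04 and 0.07 between liver and lung sham. Within liver, and between liver and lung CLP, every library correlated best with its own number, a hint from the data and not the design. Within lung not all did. The numbers were therefore not taken as pairs. With 3 libraries per group, changes as small as those of most uncalled members could be missed.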
